A study of Mus musculus with 6 samples.

Results

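The genes described here are 29 genes of cholesterol synthesis and of the SREBP2 pathway that governs it. They were taken by gene name from a table of 30707 genes and were put in pathway order. The set was selected on pathway membership and on the FPKM of its genes in the 6 samples, with the difference between the 2 groups already known, so their differences are a description, and the number of them that passed a test is not independent support. RNA was sequenced from mouse hippocampus infected with a control virus (3 samples) or with a virus that knocks down SFRS8 (3 samples). SFRS8 is the older name of Sfswap, a regulator of pre-mRNA splicing. The type of virus, the promoter it carries, the time after infection and the strain, age and sex of the mice have no entry in the sources used here. Every sample was whole tissue, so infected and uninfected cells were measured together. No label ties a library to its own animal, so each p-value reflects only how far these samples scatter, and that scatter may be technical.

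Cholesterol does not cross into the brain from blood in appreciable amount and is made there, mainly by glia in the adult and for the most part for myelin. SREBP2 is a transcription factor that is made as a precursor in the membrane of the endoplasmic reticulum. When sterols are scarce, the escort protein SCAP carries the precursor to the Golgi, the proteases S1P and S2P cut it, and the released part enters the nucleus and switches on the synthesis genes. When sterols are plentiful, the INSIG proteins hold SCAP and the precursor back. Neurons dispose of cholesterol by turning it into 24S-hydroxycholesterol, which activates the nuclear receptor LXR and leaves the brain.

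The promoters of 4 genes that recur below are shown because SREBP2 binds DNA beside the factor NF-Y, which recognises CCAAT. Whether these motifs have a part in the levels described below was not tested. The sequences are from RefSeq (GRCm38.p6), read 5′ to 3′ on the gene's own strand. Each stops before the gene's first base in the deposited table or the RefSeq start, whichever comes first. Capitals mark CCAAT on either strand (written ATTGG when it lies on the other one) and the sterol regulatory element TCACCCCAC with up to 1 mismatch. No capital stretch overlaps another. Srebf2, at chr15:82147019-82147265 on the plus strand, has 1 of each. Insig1, at chr5:28071162-28071362 on the plus strand, has 1 CCAAT box and no match to the element. Hmgcs1, at chr13:119690101-119690350 on the plus strand, has 3 CCAAT boxes and a perfect match to the element. Hsd17b7, at chr1:169969242-169969455 on the minus strand, has 2 CCAAT boxes and 1 match to the element.
Srebf2: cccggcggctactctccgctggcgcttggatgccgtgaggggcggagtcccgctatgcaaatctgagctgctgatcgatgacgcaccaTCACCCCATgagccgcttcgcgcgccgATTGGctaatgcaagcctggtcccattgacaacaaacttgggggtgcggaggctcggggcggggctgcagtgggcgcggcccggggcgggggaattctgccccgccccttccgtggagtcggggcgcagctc
Insig1: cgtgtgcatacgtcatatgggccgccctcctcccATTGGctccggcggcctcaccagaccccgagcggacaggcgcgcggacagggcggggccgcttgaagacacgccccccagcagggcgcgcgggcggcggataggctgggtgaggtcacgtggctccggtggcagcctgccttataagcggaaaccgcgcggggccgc
Hmgcs1: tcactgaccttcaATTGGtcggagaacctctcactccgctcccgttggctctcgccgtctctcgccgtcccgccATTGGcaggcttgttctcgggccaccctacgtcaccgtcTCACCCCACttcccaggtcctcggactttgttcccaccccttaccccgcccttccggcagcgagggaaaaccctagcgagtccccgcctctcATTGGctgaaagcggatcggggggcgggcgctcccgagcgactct
Hsd17b7: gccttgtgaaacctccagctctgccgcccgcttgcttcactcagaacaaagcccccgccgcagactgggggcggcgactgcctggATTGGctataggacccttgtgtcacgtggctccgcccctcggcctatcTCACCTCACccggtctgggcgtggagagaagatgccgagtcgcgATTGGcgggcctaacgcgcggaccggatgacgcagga

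Over the whole set, 25 of the 29 genes had a RefSeq promoter window of 250 bases before to 50 bases after an annotated start, and Fdps, Fdft1, Sqle and Stard4 had none. CCAAT was found on either strand in a window of 21 of the 25 genes (84%), against 42.4% of the 9994 genes tested for expression that had a window and 37.4% of all 32851 windows. The GC box GGGCGG was found in 22 of the 25 (88%), against 69.4% of the tested genes and 35.7% of all windows. The stricter sterol element TCACNCCAC was found only in Hmgcs1, and in 1.36% of the tested genes and 1.24% of all windows. With up to 1 mismatch to TCACCCCAC, matches were found in 5 of the 25, namely Srebf2, Acat2, Hmgcs1, Nsdhl and Hsd17b7 (20%), against 12.2% of the tested genes and 9.82% of all windows. A match says that these letters are present, not that a factor binds there. In Srebf2 the element lay at −162 to −154 and the CCAAT box at −135 to −131, counted in bases from the start.

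**Figure D1:**
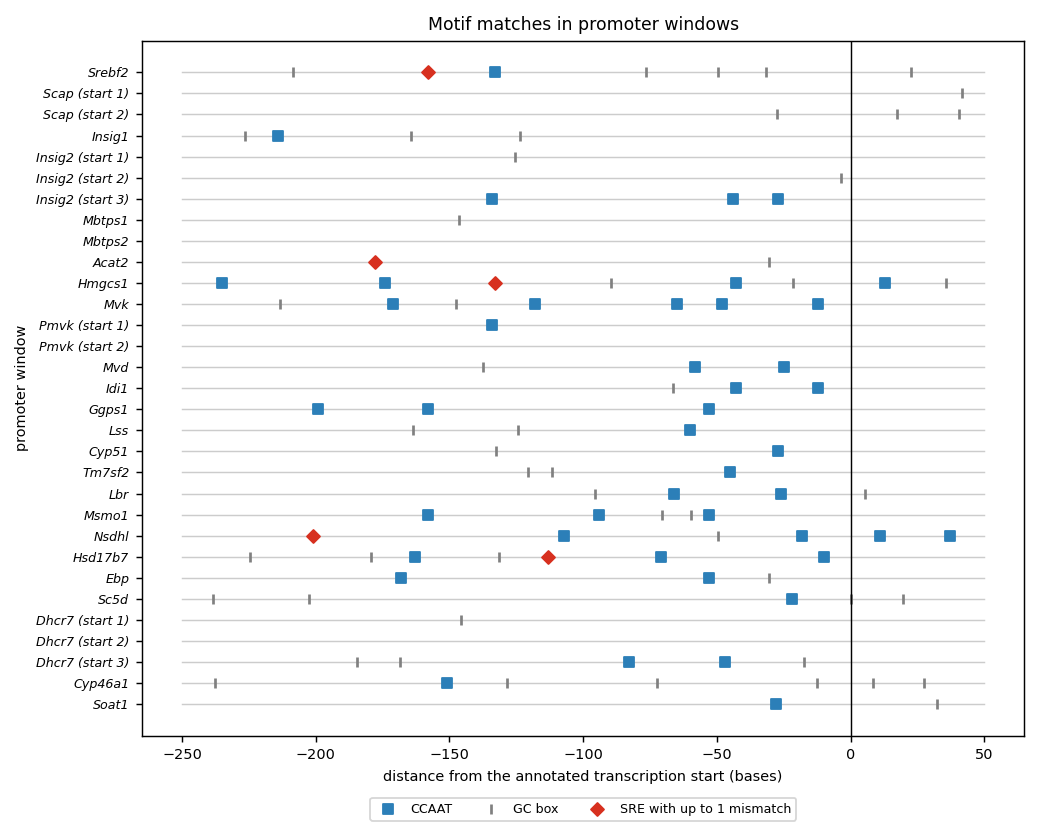
Position of CCAAT boxes (squares), GC boxes (ticks) and sterol elements with up to 1 mismatch (diamonds) in the 31 promoter windows of 25 genes. The horizontal axis is the distance in bases from the annotated start, and genes with several annotated starts have a row for each. Of the 25 genes, 21 have a CCAAT box and 5 have a sterol element.

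Sfswap itself checked the labels. It stood at 16.7, 18.5 and 19.2 FPKM (fragments per kilobase of exon, scaled to library size) in control samples 1, 2 and 3, against 9.79, 11.3 and 9.58 in the matching knockdown numbers. The groups did not overlap, and 56.4% of the control mean was left (log2 fold change −0.77, SE 0.09, limma adjusted p = 0.0432). The log2 fold change was negative in all 12 alternative settings and the call was kept in 5 of them, at adjusted p-values of 0.0238 to 0.148 in limma. Library totals recovered from the values were 16622949 to 18097343 reads. Neurod6, Prox1 and Zbtb20, from the list of hippocampal neuron markers, were present in every sample, with control means of 72.4, 13.8 and 9.49 FPKM. The 6 markers of that list summed to 172 to 179 FPKM in the controls and to 124 to 154 under knockdown, with no overlap, and 1 of them, Lct, was called lower at 0.368 of the control mean. Libraries differed in tissue other than hippocampus: the summed level of 9 choroid plexus markers was 51.4, 72.6 and 3087 FPKM in the 3 controls by number, against 4675, 4363 and 1205 under knockdown. Control sample 3 thus resembled the knockdown samples in this respect. The 10 neuron markers summed to 1370 to 1391 FPKM in the controls, 1184 and 1147 in knockdown samples 1 and 2, and 1401 in knockdown sample 3. The 8 microglia markers were higher in every knockdown sample, at 432 to 681 FPKM against 262 to 351. The 6 endothelium markers did not overlap, at 47.9 to 49.6 FPKM in the controls and 65.9 to 77.4 under knockdown, and 1 of them, Pecam1, was called higher. The 12 astrocyte markers overlapped in sum, at 978 to 1153 and 980 to 1216 FPKM, and 2 of them, Aqp4 and Gja1, were called higher at 2.64 and 1.70 times the control mean. In the same list Ntsr2 and Aldoc stood at 0.702 and 0.740 of the control mean and were not called. The 10 myelin markers overlapped between the groups, at 1034 to 1254 and 1197 to 1511 FPKM. In whole tissue, fewer cells of a type and less RNA per cell cannot be told apart, and the part of cell makeup in the differences below was not tested.

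Of the 29 genes, 28 reached a mean of 1 FPKM over the 6 samples and were tested. A lower mean in the knockdown samples was found in 20 of these 28, and in 46.2% of all genes tested. Srebf2 was the only member that passed the test, in the direction of lower levels. In the same fit over all 14012 genes tested (limma on log2(FPKM + 1), Benjamini-Hochberg adjusted p under 0.05), 0.228% of genes were called lower and 1.2% higher. No member was called higher. Fdft1 lay just outside, at a limma adjusted p of 0.05003, and the other 26 had adjusted p-values of 0.158 to 0.985 in the same fit. At an unadjusted p under 0.05, 4 members were lower and 1 was higher, while 1118 of all genes were lower and 2199 higher. All 3 knockdown samples lay below all 3 controls in 6 members, Srebf2, Insig2, Pmvk, Fdft1, Sqle and Cyp51, a relation that held for 11.8% of all genes tested. All 3 lay above in Ebp and Soat1, as they did for 18% of all genes tested. Because the genes were proposed with this contrast known, nothing is read from these counts against their backgrounds. The median log2 fold change of the 28 members, knockdown minus control, was −0.13 on the log2(FPKM + 1) scale, where that of all genes tested was 0.02. That median was −0.06 without control sample 2, −0.05 without knockdown sample 1 and −0.22 without control sample 3.

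**Figure D2:**
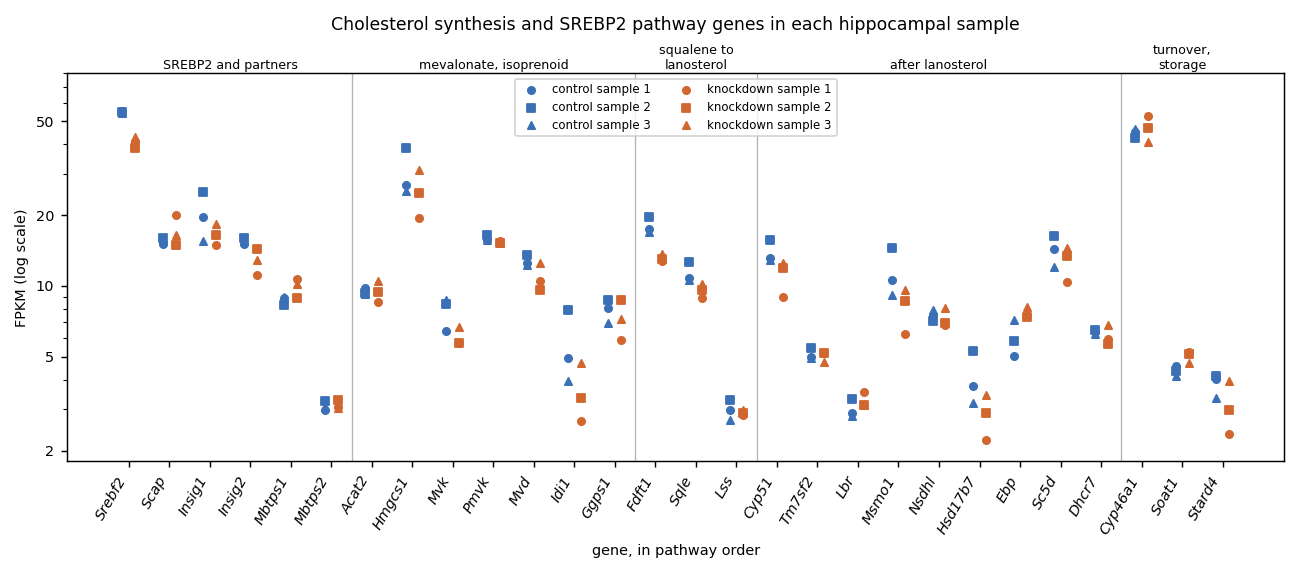
FPKM (log scale) of the 28 members tested, in pathway order, with 1 point per sample (blue, control samples 1 to 3; orange, knockdown samples 1 to 3). Srebf2 has 54.5 to 55.2 FPKM in the controls against 38.7 to 43.1 under knockdown, and Idi1 and Hsd17b7 show a wide spread within each group.

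The members differed 18.4-fold in their level per length in the controls. Their control means ran from 2.98 FPKM for Lss to 54.8 for Srebf2, with a median of 9.08, against a median of 6.30 over all genes tested. Srebf2, at 54.8 ± 0.357 FPKM (SD, n = 3), and Cyp46a1, at 44.6 ± 2.17, were the most abundant and did not overlap with each other or with Hmgcs1, the next in order, at 30.3 ± 7.32. Insig1 followed at 20.1 ± 4.80 and Fdft1 at 18.0 ± 1.38, whose control samples overlapped. Among the scarce members, Mbtps2, Lbr and Lss at 3.09, 3.00 and 2.98 FPKM did not differ beyond their spread. Of the 2 genes for sterol C14 reductase, Tm7sf2 stood 1.71-fold above Lbr, which also encodes the lamin B receptor of the nuclear envelope.

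Of the SREBP2 machinery, the transcription factor itself and both INSIG genes had lower means, and the escort and the proteases had means at or above those of the controls. Srebf2 (mm10 chr15, 82147266 to 82205376, on the plus strand) was measured at 55.2, 54.9 and 54.5 FPKM in the controls by number, against 41.0, 38.7 and 43.1 under knockdown. The controls lay within 1.01-fold of each other, and every knockdown sample was below them. Srebf2 fell to 0.746 of the control mean, a log2 fold change of −0.42 (SE 0.07, limma adjusted p = 0.0453). The call was lost without any 1 of the 6 samples, with no filter, with another scaling and with the replicate number as a block, at adjusted p-values of 0.0402 to 0.152 over 11 alternatives, while the log2 fold change stayed between −0.45 and −0.38. Knockdown sample 3, which held less choroid plexus signal than control sample 3, had 0.791 times its Srebf2 level. These 2 libraries also differed in summed microglia markers, at 432 FPKM in knockdown sample 3 and 262 in control sample 3. The part of cell content in the Srebf2 difference was not tested.

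Scap, the escort, stood at 15.1, 16.04 and 15.7 FPKM in the controls against 19.97, 14.9 and 16.4 under knockdown, so knockdown samples 1 and 3 lay above every control and knockdown sample 2 below. Mbtps1, which encodes S1P, stood at 8.88, 8.28 and 8.95 against 10.7, 8.87 and 10.2 FPKM, and its groups overlapped at the lower edge. Mbtps2, which encodes S2P, was at 1.01 times the control mean (log2 fold change 0.01, SE 0.08). None of the 3 passed the test. In the annotation another gene, Yy2, lies on the same strand over 28.4% of the exon length of Mbtps2. How reads shared between Mbtps2 and Yy2 were counted is not known.

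The 2 retention genes differed in their spread more than in their mean. Insig2 had 15.03, 16.01 and 15.5 FPKM in the controls against 11.1, 14.3 and 12.9 under knockdown, which did not overlap (0.822 of the control mean, log2 fold change −0.27, SE 0.10). Insig1, itself a target of SREBP2, had 19.6, 25.1 and 15.5 FPKM in the controls against 14.9, 16.4 and 18.2 under knockdown. Its mean was lower by a like amount, 0.823 of the control mean, but control sample 3 lay below knockdown samples 2 and 3, so the groups overlapped (log2 fold change −0.25, SE 0.17).

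**Figure D3:**
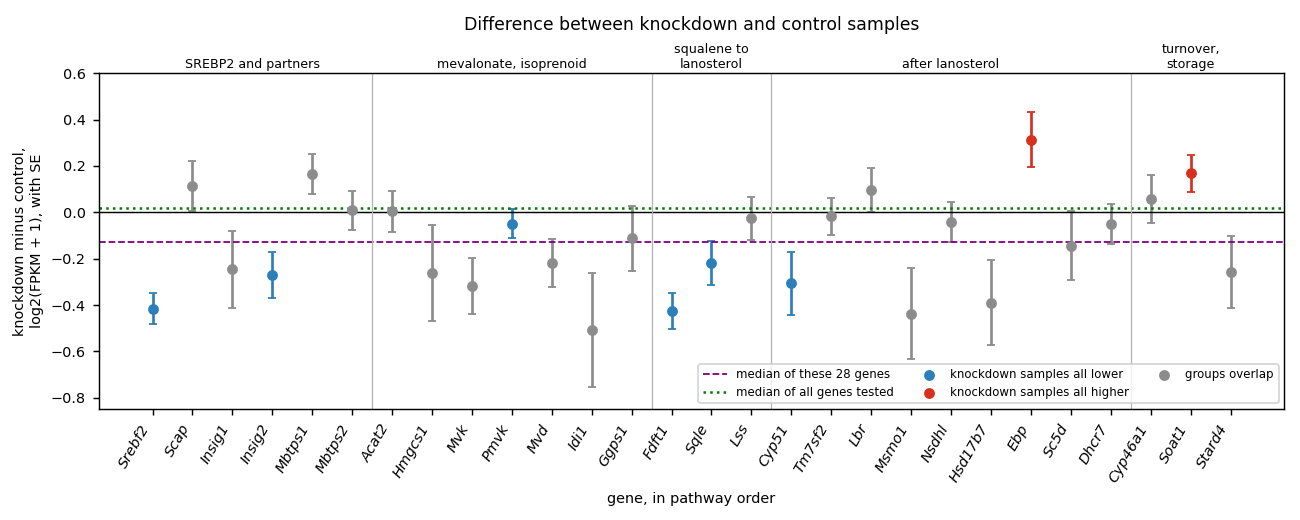
Difference between knockdown and control samples for each of the 28 members tested, as log2 fold change on the log2(FPKM + 1) scale with its standard error from limma. Blue points mark the 6 genes whose knockdown samples were all lower and red points the 2 whose knockdown samples were all higher; the dashed line at −0.13 is the members' median and the dotted line at 0.02 that of all genes tested.

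Of the 7 tested enzymes from acetyl-CoA to the isoprenoids, 6 had negative log2 fold changes (median −0.22), and none passed the test. Hmgcs1, which condenses acetoacetyl-CoA and acetyl-CoA to HMG-CoA, stood at 26.9, 38.7 and 25.2 FPKM in the controls against 19.5, 24.7 and 31.0 under knockdown. The groups overlapped, and control sample 2 and knockdown sample 3 were the highest of each (0.828 of the control mean, log2 fold change −0.26, SE 0.21). Idi1, the isomerase of isopentenyl diphosphate, had the lowest ratio of all, 0.639, with 4.95, 7.88 and 3.94 FPKM in the controls against 2.67, 3.33 and 4.71 under knockdown. Read numbers behind these were 299, 500 and 248 for the controls against 166, 194 and 288 under knockdown, and the 2.00-fold range among the controls was wider than the difference of the means (log2 fold change −0.51, SE 0.25). Mvk, mevalonate kinase, was lower with less spread, at 6.46, 8.35 and 8.70 against 5.71, 5.73 and 6.69 FPKM, and overlapped only between control sample 1 and knockdown sample 3 (ratio 0.772).

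Mvd, the decarboxylase that follows, stood at 12.6, 13.6 and 12.2 against 10.5, 9.64 and 12.5 FPKM, where knockdown sample 3 reached the control range. Pmvk, phosphomevalonate kinase, differed by little although its groups did not overlap, at 15.6 to 16.5 FPKM against 15.2 to 15.5 (ratio 0.964). Acat2, the cytosolic thiolase at the head of the pathway, was at 1.01 times the control mean, and Ggps1, which makes geranylgeranyl diphosphate, at 0.922 with overlapping groups. Acat2 has a close copy, Acat3, at 1.53 FPKM in the controls, and reads shared between them are uncertain.

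Fdps, farnesyl diphosphate synthase, was listed at 0.0657 to 0.165 FPKM in all 6 samples, on 5 to 12 reads, and was not tested. The table gives 2.30, 2.55 and 3.15 FPKM in the controls against 1.60, 2.16 and 2.06 under knockdown to Gm3571, a processed pseudogene whose protein annotation in the same table is farnesyl pyrophosphate synthase. The annotation also holds a further gene, Gm43738, over 26.7% of the exon length of Fdps on the same strand. How reads shared between such genes were counted is not known, so the Fdps value is uncertain, and the part of these genes in it was not tested. Gm3571 was named after its values were seen.

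All 3 enzymes from farnesyl diphosphate to lanosterol had negative log2 fold changes. In 2 of them every knockdown sample lay below every control, as in 11.8% of all genes tested. Fdft1, squalene synthase, which commits isoprenoids to sterols, stood at 17.5, 19.6 and 17.0 FPKM in the controls against 12.8, 13.0 and 13.6 under knockdown. The knockdown samples lay close together and below every control (ratio 0.729, log2 fold change −0.43, SE 0.08, limma adjusted p = 0.05003). It passed the threshold with a pseudocount of 0.1, with a filter at 5 FPKM and with voom on recovered reads, at adjusted p-values of 0.0472, 0.0421 and 0.0345, and over 12 alternatives its adjusted p ran from 0.0345 to 0.159. Its exons overlap those of Ctsb on the opposite strand over 18.3% of their length, and Ctsb was the more abundant, at 121 FPKM in the controls and 156 in the knockdown samples. Whether reads were assigned by strand is not given in the sources used here.

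Sqle, squalene epoxidase, stood at 10.8, 12.7 and 10.5 against 8.92, 9.59 and 10.2 FPKM, and the lowest control lay just above the highest knockdown sample. Lss, lanosterol synthase, differed by less than its spread, at 2.69 to 3.27 FPKM in the controls against 2.83 to 2.98 under knockdown (ratio 0.974).

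Of the 9 enzymes that turn lanosterol into cholesterol, 7 had negative log2 fold changes, and the size of the difference varied along the route. Cyp51, the C14 demethylase, stood at 13.1, 15.7 and 12.9 FPKM against 8.97, 11.9 and 12.5, with no overlap (ratio 0.7995). Msmo1, the C4 methyl oxidase, stood at 10.6, 14.5 and 9.19 against 6.24, 8.62 and 9.63 (ratio 0.713), and Hsd17b7, the C3 ketoreductase, at 3.76, 5.32 and 3.17 against 2.22, 2.90 and 3.44 (ratio 0.699). In both, knockdown sample 3 exceeded control sample 3. Sc5d, the C5 desaturase, followed the same order of samples with a smaller difference, at 14.3, 16.3 and 12.02 against 10.4, 13.5 and 14.5 FPKM (ratio 0.900).

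The remaining enzymes of this segment had near-equal or higher means. Tm7sf2, Nsdhl, the C4 decarboxylase, and Dhcr7, which reduces 7-dehydrocholesterol, had ratios of 0.963 to 0.986, and Lbr stood at 1.09. Exons of Tm7sf2 overlap those of Vps51 on the same strand over 12.1% of their length, and its values were not whole reads, so part of its level is uncertain. Ebp, the sterol isomerase, went the other way from its neighbours, at 5.02, 5.84 and 7.18 FPKM in the controls against 7.47, 7.37 and 8.12 under knockdown. Every knockdown sample was above every control, with control sample 3 close to them (ratio 1.27, log2 fold change 0.31, SE 0.12), and the difference did not pass the test.

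Of the 3 genes of turnover, storage and transfer, 2 had higher means and 1 a lower mean, and none passed the test. Cyp46a1, the neuronal 24-hydroxylase, stood at 45.1, 42.3 and 46.5 FPKM in the controls against 52.7, 46.8 and 40.8 under knockdown, so the groups overlapped from end to end (log2 fold change 0.06, SE 0.10). Soat1, which esterifies cholesterol for storage, stood at 4.59, 4.37 and 4.14 against 5.26, 5.12 and 4.71 FPKM, higher in every knockdown sample (ratio 1.15). Stard4, a cytosolic sterol carrier and a target of SREBP2, stood at 4.04, 4.13 and 3.33 against 2.34, 2.96 and 3.94 FPKM.

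Within each group the members tended to be high, or low, in the same samples. Control sample 2 was the highest control for 20 of the 28 members, against 33.4% of all genes tested, and control sample 3 the lowest for 20, against 34.9%. Knockdown sample 3 was the highest of its group for 18, against 31.0% of genes, and knockdown sample 1 the lowest for 16, against 35.1%. Both orders together, control sample 2 above 1 above 3 and knockdown sample 3 above 2 above 1, were met by 11 members (39.3%) and by 4.91% of all genes tested. These were Insig1, Hmgcs1, Idi1, Fdft1, Sqle, Lss, Cyp51, Msmo1, Hsd17b7, Sc5d and Stard4. The members share libraries, so these counts describe 6 samples and were not tested.

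**Figure D4:**
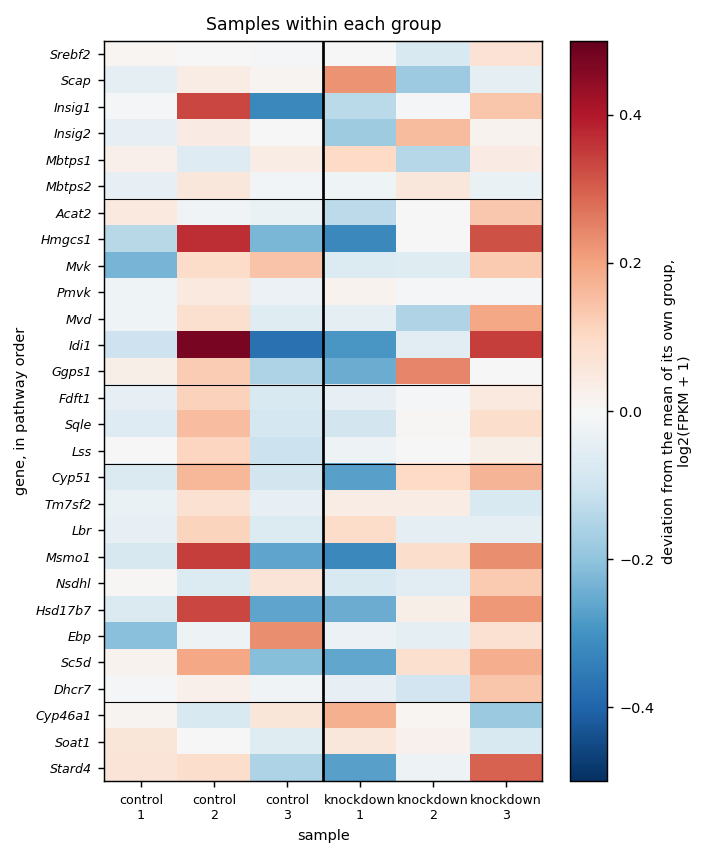
Deviation of each sample from the mean of its own group, on the log2(FPKM + 1) scale, for the 28 members in pathway order (red, above its group's mean; blue, below). Control sample 2 and knockdown sample 3 are mostly red, control sample 3 and knockdown sample 1 mostly blue, most clearly in Insig1, Hmgcs1, Idi1, Msmo1 and Hsd17b7.

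The width of this swing differed between members. The highest control exceeded the lowest by 2.00-fold in Idi1, 1.68-fold in Hsd17b7, 1.61-fold in Insig1, 1.58-fold in Msmo1 and 1.53-fold in Hmgcs1, but by 1.15-fold in Fdft1 and 1.01-fold in Srebf2. Knockdown sample 3 was below control sample 3 in 10 of the 28 members, a share of 35.7% against 46.5% of all genes tested. Knockdown sample 1 was below control sample 3 in 20, a share of 71.4%, also against 46.5% of all genes tested. These samples were named above as the extremes of their groups in the same members. Both shares follow in part from that and are not a further result. Between knockdown sample 3 and control sample 3 the ratio was 0.769 in Mvk, 0.791 in Srebf2, 0.802 in Fdft1 and 0.829 in Insig2. It was 1.23 in Hmgcs1, 1.20 in Idi1, 1.17 in Insig1, 1.08 in Hsd17b7 and 1.05 in Msmo1. The genes with the widest swing were thus not lower in every pairing of a knockdown with a control sample.

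The order of samples was set beside cell markers. In the knockdown group, knockdown sample 3 had the least choroid plexus signal and the most neuron marker signal, and it had the highest mean level of the 19 enzymes tested, at −0.04 relative to the control mean on the log2(FPKM + 1) scale. Knockdown samples 1 and 2 stood at −0.29 and −0.16. In the control group, control sample 3 had the most choroid plexus signal and the lowest enzyme level, at −0.09. Control samples 1 and 2, which had little such signal, stood at −0.05 and 0.14. Neuron markers did not follow that order in the controls, where they summed to 1370, 1391 and 1384 FPKM in samples 1, 2 and 3. Myelin markers were lowest in knockdown sample 3 within its group, at 1197 FPKM against 1266 and 1511, and lowest in control sample 3 within its own, at 1034 against 1254 and 1249. Astrocyte markers summed to 980, 1034 and 1216 FPKM in knockdown samples 1, 2 and 3, the same order as the enzymes. In the controls they summed to 1153, 1020 and 978 FPKM by number, which was a different order. Microglia markers ran the reverse way under knockdown, at 681, 442 and 432 FPKM by number. In the controls they ran in the order of the enzymes, at 335, 351 and 262. The part of choroid plexus, neuron, myelin, astrocyte and microglia content in the enzyme levels was not tested.

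Neighbouring lists of lipid genes that are not among the 29 mostly had higher means under knockdown. These lists were drawn up with earlier results of these data known. In the list for sterol efflux and LXR all 8 genes had positive log2 fold changes (median 0.47), and 3 were called higher, where 1.2% of all genes tested were called higher and 46.8% had negative log2 fold changes. Abca1, the exporter of cholesterol to lipoproteins, had 5.84, 4.52 and 5.96 FPKM in the controls against 30.8, 17.1 and 21.5 under knockdown, a 4.25-fold rise (limma adjusted p = 0.0432). Abcg1, a second exporter, rose 1.52-fold, and Nr1h3, which encodes LXR alpha, 2.31-fold (adjusted p = 0.0452 and 0.0472 in limma). Apoe, the main lipoprotein of brain, named after its values were seen, stood at 1.73 times the control mean and did not pass.

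In the list for sterol uptake, transport and oxidation 12 of 15 tested genes had positive log2 fold changes and 2 were called higher, beside the same 1.2% of all genes tested. Lipa, the lysosomal acid lipase that frees cholesterol from its esters, rose 1.71-fold, from a control level of 7.47 ± 0.523 to 12.8 ± 1.37 FPKM (SD, n = 3 per group; limma adjusted p = 0.0432). Cyp27a1, a sterol 27-hydroxylase, rose 1.77-fold, from 2.37 ± 0.202 to 4.18 ± 0.249 FPKM, at the same adjusted p. Over the alternatives that gave a value, the call was kept in 5 of 12 for Abca1 and in 3 of 11 for each of Abcg1, Nr1h3, Lipa and Cyp27a1, and their log2 fold changes stayed positive. Npc2, which hands cholesterol out of the lysosome, also named after its values were seen, stood at 1.39 times the control mean and did not pass. All 8 microglia markers and 5 of the 6 endothelium markers were also higher in every knockdown sample than in any control. This relation held for 18% of all genes tested. Of the 12 astrocyte markers, Aqp4, Gja1 and Sox9 were higher in the same way. Ntsr2 and Aldoc were lower in every knockdown sample than in any control, as were 11.8% of all genes tested. The part of these cell types in the rises was not tested.

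Genes of fatty acid synthesis, which SREBP1 governs, also stood higher rather than lower. Of 16 genes, 15 had positive log2 fold changes (median 0.14), 6 had no overlap between the groups in that direction, as had 18% of all genes tested, and none was called. Srebf1 itself stood at 14.2, 12.4 and 13.8 FPKM in the controls against 23.8, 16.8 and 16.6 under knockdown, the opposite direction to Srebf2. Gpam, which starts glycerolipid synthesis, stood at 1.70 times the control mean at a limma adjusted p of 0.05003, and Fads2, a fatty acid desaturase, at 1.29 times. The mean level of this list was 0.19 to 0.22 above the control mean in the 3 knockdown samples on the log2(FPKM + 1) scale, with little spread between them, unlike the enzymes of cholesterol synthesis.

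**Figure D5:**
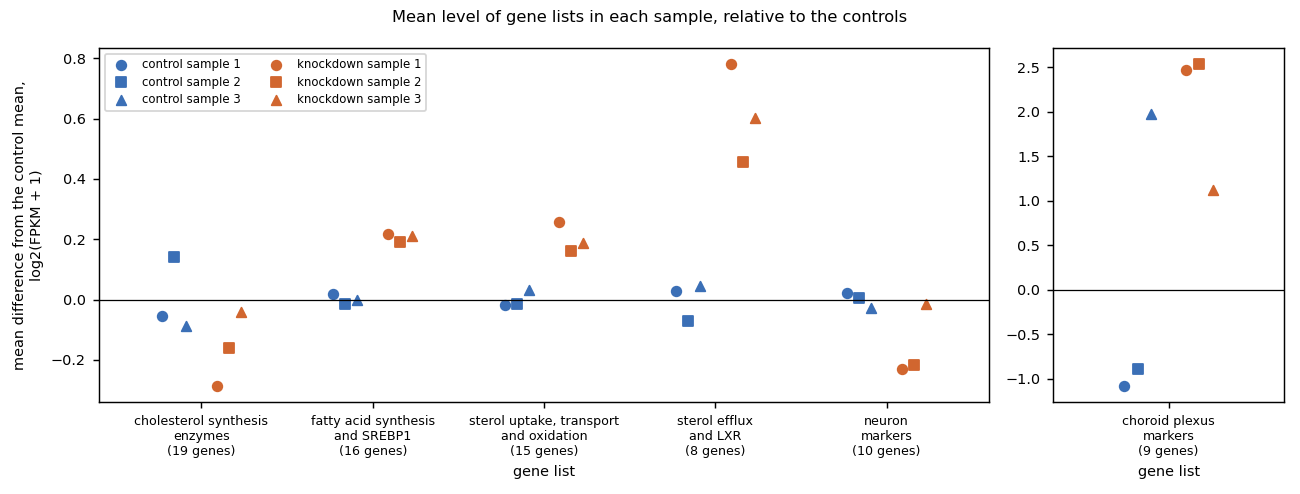
Mean difference from the control mean, on the log2(FPKM + 1) scale, of each list in each sample (blue, control; orange, knockdown; circle, square and triangle for samples 1 to 3). The enzymes of cholesterol synthesis run from −0.29 to −0.04 in the knockdown samples and overlap the controls, fatty acid synthesis and sterol efflux lie above every control, and choroid plexus markers, on their own axis, are high in control sample 3 as well.

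The other lists around the pathway held no called gene. Of 16 genes of the isoprenoid branches (dolichol, ubiquinone and protein prenylation) 11 had positive log2 fold changes (median 0.04). The 3 of smallest p were all lower, namely Dhdds, which makes the dolichol chain, at 0.849 of the control mean, Rabggta, a subunit of the Rab prenyltransferase, at 0.831, and Coq2, of ubiquinone synthesis, at 0.840. Among 13 partners of sterol-regulated retention and degradation in the endoplasmic reticulum the median was 0.04. There Rnf145, a ubiquitin ligase, stood at 1.22 times the control mean with no overlap, and Tmem97 at 0.841. Among 10 tested redox partners and paralogues the median was 0.05. That of all genes tested was 0.02. Acat1, the mitochondrial thiolase, stood at 1.22 times the control mean and Cyb5a, an electron donor, at 1.21 times, each with no overlap between the groups. The same relation, as in Rnf145, held for 18% of all genes tested.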

How the data were processed

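The authors deposited 1 table of FPKM values per gene (fragments per kilobase of exon, scaled to library size) for the 6 samples, on mm10 per the submitters' processing notes. Libraries were made from 1.5 µg of RNA, with fragments near 350 bp, per the labels' protocols. Aligner, counting program and use of strand: not given in the sources used here. Earlier results of these data were known when the members and all lists were chosen.

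Genes whose 6-sample mean reached 1 FPKM entered a limma fit (version 3.58.1, R 4.3.3) of log2(FPKM + 1) (group as the only term, variance trend, two-sided), and p-values were adjusted over 14012 genes by Benjamini-Hochberg. Fold values are ratios of group means in FPKM. The pseudocount understates the change of scarce genes on the log2 scale. Exon lengths from GENCODE M21 turned FPKM into reads: 90.9% to 91.1% of values above 0 came within 0.01 of a whole number, and all 6 values did for 27 of the 29 members. A single read per kb corresponded to 0.0553 to 0.0602 FPKM, and a listed 0 leaves room for 3 reads. These limits cover counting error only. The same test was tried on simulated data for 12272 genes, those with whole reads, with 200 changed. It called 36% of genes changed 1.5-fold, 62% of those changed 2-fold and 4 unchanged genes, and 0 genes in a run with none changed. Genes named were Sfswap, all members, and in each neighbouring list the genes called or else the 3 of smallest p. Some genes that this rule names are not reported here. Gm3571, Ctsb, Acat3, Vps51, Apoe and Npc2 fall outside that rule and were picked with their values in view. Alternatives were another pseudocount, other filters, median-ratio scaling, the replicate block, voom on recovered reads and each sample left out in turn.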

Additional observations from a re-analysis of the deposited data

How the results depend on the processing

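Over 12 alternatives, 17 of the 28 members tested kept a negative log2 fold change and 5 a positive one in every alternative that gave a value, while 6 near 0 (Acat2, Cyp46a1, Ggps1, Lss, Mbtps2 and Tm7sf2) took both signs. All genes called higher and lower numbered 168 and 32 in the fit reported. They numbered 290 and 64 with a pseudocount of 0.1, 0 and 0 with no filter on low values, 170 and 65 with a filter at 5 FPKM, 72 and 24 with median-ratio scaling, 0 and 0 with the replicate block, and 498 and 96 with voom on recovered reads. Members called lower numbered 2 with a pseudocount of 0.1 or a filter at 5 FPKM, 1 with voom, which could not use Srebf2 because its values were not whole reads, and 0 with no filter, median-ratio scaling or the replicate block. At an unadjusted p under 0.05, limma had 2938 genes higher and 1478 lower with no filter, and 2073 and 964 with the replicate block. Calls in the neighbouring lists went from 5 to 0 with no filter or the replicate block and to 3 with median-ratio scaling. With voom they were also 3, namely Abca1, Nr1h3 and Cyp27a1, and voom could not use Abcg1 and Lipa. Leaving out 1 sample at a time gave 0 to 160 genes higher and 0 to 30 lower, members called lower from 0 to 0, and 0 to 4 calls in the neighbouring lists. No gene was called without control sample 1, control sample 2 or knockdown sample 1, where limma had 1730, 1639 and 1873 genes higher and 754, 686 and 1082 lower at an unadjusted p under 0.05. Apart from the genes that voom could not use, the cause of these changes was not tested. Same-numbered samples of the groups deviated from their group means with correlations across genes of 0.05, 0.04 and −0.01, so the numbers were not taken as pairs. The members tested had at least 166 reads in each sample that gave whole reads, and the part of depth in the calls was not tested.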
